A study of Rattus norvegicus with 15 samples.

Results

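Collagen VI was represented by 3 of the 11574 genes counted in cultures of the rat line H9c2. They were Col6a1 (ENSRNOG00000001249), Col6a2 (ENSRNOG00000001254) and AABR07068316.1 (ENSRNOG00000019648). The genes were taken by symbol from a list of 4 symbols, because their RNA was low in cultures with retinoic acid (RA). The fourth symbol, Col6a3, was carried by no row. The deposited annotation describes AABR07068316.1, typed there as a processed transcript, as the collagen type VI alpha 3 chain, and RefSeq names the same NCBI gene (367313) Col6a3 and lists it as protein-coding. It is called the alpha 3 chain gene here, under the symbol of the count table. The alpha 4, alpha 5 and alpha 6 chain genes were not analysed here.

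Collagen VI is a matrix protein that cells assemble from alpha 1, alpha 2 and alpha 3 chains and secrete as beaded microfibrils around the cell. In muscle it lies next to the basement membrane, where fibroblasts of the tissue are its main source, and mutations in these chain genes cause the Bethlem and Ullrich muscle disorders. The alpha 3 chain is the longest of them and is cut at its end after secretion.

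H9c2 is a myoblast line from embryonic rat heart that forms myotubes when serum is lowered, and all-trans RA, made from vitamin A, switches genes by way of nuclear receptors. Poly(A) RNA of 15 wild-type cultures was sequenced, with 3 cultures in each of 5 groups. T0 cultures were collected a day after seeding, before the serum was lowered. T7-RA and T14-RA were kept in low serum without RA for 7 and 14 days, and T7+RA and T14+RA received 1 µM RA daily in low serum for the same times. RA was dissolved in DMSO and the sources do not say whether the cultures without RA received DMSO, so RA and its solvent cannot be told apart. All cultures are of 1 cell line, and the labels' cell line field gives H9c2 to the first culture and a running series of names (H9c3 and on) to the others, while all titles say H9c2.

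Libraries held between 508397 and 1030820 counts. Levels are given as counts per 1000000 counts of the library (CPM), scaled by the TMM method. Of the 3 RA control genes analysed, Cyp26b1, Dhrs3 and Rai14, all were higher in the RA groups at both days (edgeR quasi-likelihood test, adjusted p under 0.001). The summed level of 12 myotube markers was 257 to 317 CPM at T0, 16700 to 17100 CPM in T14-RA and 7180 to 8280 CPM in T14+RA. Of 12 cardiomyocyte markers, 4 were among the genes analysed, and Myh6, Myh7, Tnni3, Nppa and Ryr2 were not. The myoblast markers Pax7 and Myf5 were also not among them, whereas Myod1 was.

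Col6a1 and Col6a2 lie in the same cytogenetic band, 20p12, and the alpha 3 chain gene lies at 9q36. The promoter letters of the alpha 1 and alpha 3 genes are shown because these genes were both low in every RA culture but took different courses with time. RefSeq sequences of 250 bases before the start were found for 2 of the 3 genes (build GRCr8), at chr20:11905440-11905689 on the plus strand for Col6a1 and at chr9:98886959-98887208 on the minus strand for Col6a3. Capitals mark a match to TGACTCA, the letters bound by AP-1 factors.
Col6a1: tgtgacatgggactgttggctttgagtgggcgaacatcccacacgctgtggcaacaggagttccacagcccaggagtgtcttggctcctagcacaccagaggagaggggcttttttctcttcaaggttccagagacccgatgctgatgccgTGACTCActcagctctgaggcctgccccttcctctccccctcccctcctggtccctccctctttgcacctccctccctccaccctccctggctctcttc
Col6a3: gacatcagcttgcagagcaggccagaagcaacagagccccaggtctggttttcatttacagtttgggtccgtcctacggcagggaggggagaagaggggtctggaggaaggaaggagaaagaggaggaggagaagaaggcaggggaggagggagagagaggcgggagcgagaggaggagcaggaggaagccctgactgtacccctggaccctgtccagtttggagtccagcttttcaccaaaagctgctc
A set of 4 motifs was searched on both strands, AGGTCA (the nuclear receptor core, to which RA receptors bind), TGACTCA as above, the GC box with the letters GGGCGG, and the E-box of myogenic factors with the letters CANNTG. Col6a1 held 1 match, TGACTCA, whose first base was at -99, and Col6a3 held none of the 4. Among 27457 rat promoters of the same length, 13.7% held AGGTCA, 3.98% held TGACTCA, 32.4% held GGGCGG and 65.2% held CANNTG. GC content was 60.0% for Col6a1 and 58.4% for Col6a3, against a median of 52.0% over all promoters. No match to AGGTCA says only that these letters are not in this window.

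Col6a1, the alpha 1 chain gene, gave 128, 107 and 103 counts in the 3 T0 cultures. This corresponded to 177, 201 and 216 CPM, the group with the highest mean. In T7-RA, its levels were 116, 91.4 and 144 CPM, below every T0 culture. In T14-RA, they were 172, 149 and 186 CPM, so that T14-RA overlapped T0 and lay above every T7-RA culture. With RA, only 2, 4 and 3 counts were left at day 7 (2.85, 5.37 and 5.14 CPM) and 9, 5 and 5 counts at day 14 (8.68, 7.86 and 9.06 CPM). For T0, T7-RA and T14-RA the means were 198 ± 19.8, 117 ± 26.2 and 169 ± 18.9 CPM, and for T7+RA and T14+RA 4.45 ± 1.39 and 8.54 ± 0.616 CPM (SD, n = 3). The order of the levels was therefore T0, T14-RA, T7-RA, T14+RA and T7+RA, and of these neighbours only T0 and T14-RA overlapped.

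Col6a2, the alpha 2 chain gene, had 156, 178 and 191 CPM in the T0 cultures, from 113, 95 and 91 counts. In T7-RA it had 124, 132 and 126 CPM, the narrowest group, all below T0. In T14-RA it had 180, 191 and 168 CPM, inside the range of T0 but for the second culture. With RA, the gene kept more counts per group than the other chains, with 20, 17 and 3 at day 7 and 15, 19 and 16 at day 14. The corresponding levels were 28.5, 22.8 and 5.14 CPM in T7+RA and 14.5, 29.9 and 29.0 CPM in T14+RA, and both groups overlapped. The third T7+RA culture stood below the others of its group. For T0, T7-RA and T14-RA its means were 175 ± 17.7, 127 ± 3.9 and 180 ± 11.9 CPM, and for T7+RA and T14+RA 18.8 ± 12.2 and 24.5 ± 8.65 CPM (SD, n = 3). The order of the levels was T14-RA, T0, T7-RA, T14+RA and T7+RA, and the overlapping neighbours were T14-RA with T0 and T14+RA with T7+RA.

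The alpha 3 chain gene, AABR07068316.1, followed another course over time. The T0 cultures gave 19, 6 and 9 counts, or 26.2, 11.3 and 18.9 CPM. After 7 days without RA the cultures gave 25, 22 and 27 counts, or 29.8, 29.6 and 39.2 CPM, and after 14 days they gave 99, 80 and 74 counts, or 119, 142 and 125 CPM. None of these 3 groups overlapped another, and T14-RA was the highest. With RA, each T7+RA culture gave 1 count and the T14+RA cultures gave 0, 1 and 1, which is at or under the floor of 3 counts per library used here. For T0, T7-RA and T14-RA the means of the alpha 3 chain gene were 18.8 ± 7.48, 32.9 ± 5.50 and 129 ± 11.8 CPM, and for T7+RA and T14+RA 1.49 ± 0.195 and 1.13 ± 0.985 CPM (SD, n = 3). The order was T14-RA, T7-RA, T0, T7+RA and T14+RA, and only the last pair overlapped.

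**Figure D1:**
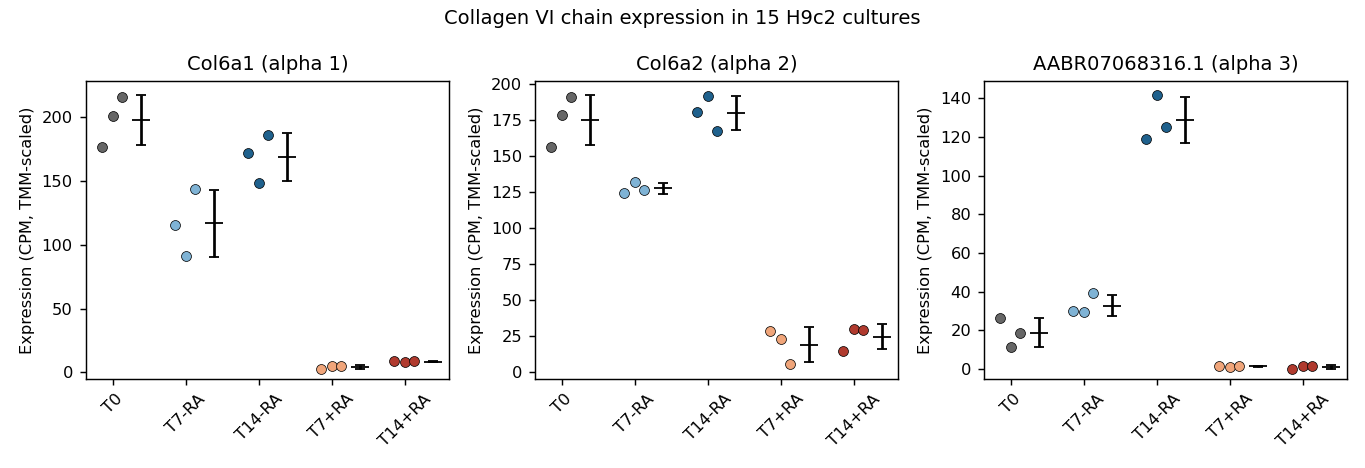
Expression in CPM (linear y axes, 1 panel per gene) of the 3 collagen VI chain genes in 15 cultures, by group on the x axis. Points are cultures, and the dash with bars beside them is the mean ± SD (n = 3). RA cultures lie lowest in each panel, at up to 9.06 CPM for Col6a1, 29.9 for Col6a2 and 1.81 for the alpha 3 chain gene, Col6a1 and Col6a2 are lower at T7-RA than at T0, and AABR07068316.1 is highest in T14-RA with a mean of 129 CPM.

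Levels of different genes are comparable only per length, and the gene models were 3078 bases for Col6a1, 3695 for Col6a2 and 9858 for the alpha 3 chain gene. Per kilobase, the mean levels at T0 were 64.3, 47.4 and 1.91 CPM per kb for alpha 1, alpha 2 and alpha 3. In T14-RA they were 54.9, 48.6 and 13.1 CPM per kb. The alpha 3 chain gene was thus the lowest of the chains per length in every group, and it made up 1.72% ± 0.815, 4.39% ± 0.305 and 11.2% ± 1.23 of the 3 chains in the groups T0, T7-RA and T14-RA (SD, n = 3). The alpha 1 share was 56.6% ± 0.416 at T0 and 47.0% ± 4.45 in T14-RA, and the alpha 2 share was 41.7% ± 0.400 and 41.8% ± 3.45. Shares assume that the length given for each gene is the length transcribed in these cells, which was not tested.

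The changes over time without RA were tested on all genes. The T0 cultures played no part in the choice of the genes, but T7-RA and T14-RA did, as the controls of the RA contrasts. A choice by a large RA difference favours high levels in these groups, so the tests over time are not independent of it. Between T0 and T7-RA, Col6a1 fell by 0.75 on the log2 scale (SE 0.15, adjusted p = 8.89e-05, edgeR quasi-likelihood test with Benjamini-Hochberg adjustment), in 3 of 3 cultures. It was 1 of 3 chain genes called at an adjusted p under 0.001, beside 8.78% of all genes in this comparison (4.54% lower and 4.23% higher). The call was lost without the first T7-RA culture (adjusted p = 0.00113) or the second (0.00465), and with DESeq2 (0.00148), with log2 changes of -0.75, -0.61 and -0.76. Col6a2 differed by -0.45 (SE 0.16, edgeR adjusted p = 0.0367) and was not called. Nor was the alpha 3 chain gene, at 0.74 (SE 0.31, edgeR adjusted p = 0.0764). The T7-RA cultures lay below all T0 cultures for Col6a1 and Col6a2, as for 15.8% of all genes, and above them for the alpha 3 chain gene, as for 17.5%.

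Between T0 and T14-RA, the alpha 3 chain gene rose by 2.70 on the log2 scale (SE 0.25, edgeR adjusted p = 5.06e-14), the 334th highest change of the 11574 genes. It was again 1 of 3 chain genes called, beside 15.7% of all genes (7.83% higher and 7.84% lower), and its groups did not overlap, as for 21.5% of all genes in this direction. For Col6a1 the difference was -0.21 (SE 0.15, edgeR adjusted p = 0.28). For Col6a2 it was 0.05 (SE 0.16, edgeR adjusted p = 0.844). This comparison shares the T0 cultures with that at day 7.

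In the second week, from T7-RA to T14-RA, the alpha 3 chain gene rose by 1.96 (SE 0.22, edgeR adjusted p = 9.67e-11), the 157th highest change. It was 1 of 3 chain genes called, beside 2.95% of all genes (1.87% higher and 1.09% lower). Col6a1 differed by 0.54 (SE 0.15, edgeR adjusted p = 0.0129). Col6a2 differed by 0.50 (SE 0.16, edgeR adjusted p = 0.0352). All 3 T14-RA cultures lay above all 3 T7-RA cultures for each chain, as was so for 13.2% of all genes.

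In the second week with RA, both groups compared were among those whose low levels had chosen the genes. From T7+RA to T14+RA the log2 differences were 0.92 for Col6a1 and 0.21 for Col6a2 (SE 0.54 and 0.33), with edgeR adjusted p of 0.333 and 0.794, and neither was called, beside 4.67% of all genes (2.4% higher and 2.26% lower). DESeq2 and limma-voom called neither of them, and 0 of them had an unadjusted edgeR p under 0.05. All T14+RA cultures lay above all T7+RA cultures for Col6a1 (7.86 to 9.06 against 2.85 to 5.37 CPM), as for 14.4% of all genes, and the groups overlapped for Col6a2. The alpha 3 chain gene was at or under the floor in both groups, so neither its fold nor its test was interpreted. The range of its log2 change over the libraries left out in turn is listed only with the processing alternatives below. At 2 to 9 counts a culture for Col6a1 and 0 or 1 for the alpha 3 chain gene, only large changes were detectable at this depth.

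The rise of the alpha 3 chain gene relative to the other chains was then measured within each library, as the log2 ratio of counts, where the depth of the library cancels. For alpha 3 over alpha 1, the T0 libraries gave -2.75, -4.16 and -3.52. The T7-RA libraries gave -1.96, -1.63 and -1.87, and the T14-RA libraries gave -0.53, -0.07 and -0.57. The 3 groups did not overlap, and the mean rose by 3.08 from T0 to T14-RA. The ratio of alpha 3 to alpha 2 rose by 2.81, from -3.30 ± 0.707 to -0.48 ± 0.10 (SD, n = 3), with -1.97 ± 0.246 between them. For both ratios, the differences among the 3 groups gave p = 0.00357 in an exact permutation test over the 9 libraries (between-group sum of squares, two-sided), the smallest p that its 1680 arrangements can give, and 0.00536 after Benjamini-Hochberg adjustment over 3 pairs of chains. For alpha 2 over alpha 1, the groups T0, T7-RA and T14-RA gave -0.18 ± 0.00445, 0.15 ± 0.359 and 0.09 ± 0.258 (SD, n = 3), with p = 0.375 in the same exact permutation test. This test was chosen after the data had been seen, and it too uses the T7-RA and T14-RA cultures that entered the choice of the genes.

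**Figure D2:**
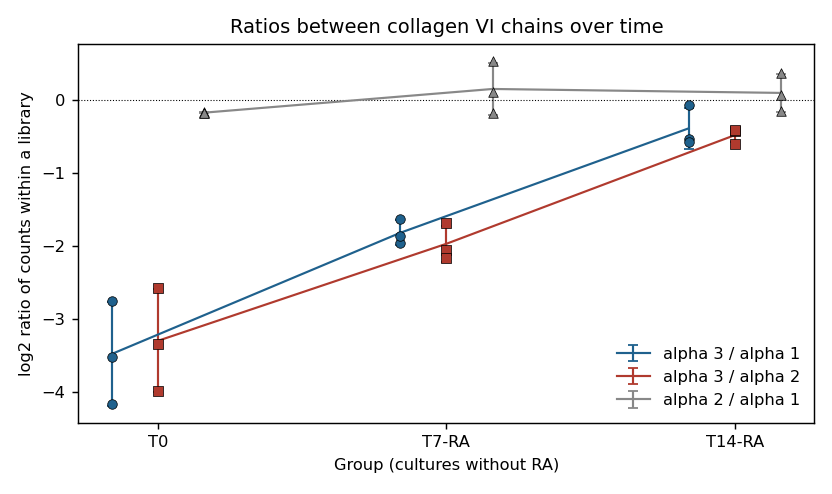
Log2 ratio of counts between pairs of collagen VI chains (y axis) in the 9 cultures without RA, by group on the x axis. Symbols are cultures, lines join group means and bars are SD (n = 3). Both ratios with alpha 3 as numerator climb from means of -3.48 and -3.30 at T0 to -0.39 and -0.48 in T14-RA, whereas the ratio of alpha 2 to alpha 1 stays between -0.19 and 0.53.

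The RA response was what the genes were chosen on, so its size is a description with no test. At day 7, 9 Col6a1 counts with RA stood against 264 without, a level 26.2-fold lower (95% counting interval 13.6 to 58.0), and at day 14, 19 counts against 337, 19.9-fold lower (12.5 to 33.4). Col6a2 was 6.46-fold lower at day 7 (4.63 to 9.23) and 7.99-fold lower at day 14 (5.93 to 11), so that 15.5% and 12.5% of its level were left, the most of any chain. The alpha 3 chain gene was 22.0-fold lower at day 7 (7.26 to 109), from 3 counts against 74, and 142-fold lower at day 14 (38.8 to 1180), from 2 counts against 253. These intervals are exact, pool the 3 cultures of a group and cover counting error only.

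In the model of all genes, the log2 RA changes at day 7 were -4.66 for Col6a1 (SE 0.31), -2.69 for Col6a2 (SE 0.24) and -4.31 for the alpha 3 chain gene (SE 0.52). At day 14 they were -4.28 (SE 0.25), -2.97 (SE 0.22) and -6.89 (SE 0.42). The last value rests on 2 counts with RA and was -6.10 without the first T14+RA culture, and -7.36 to -6.10 over the libraries left out in turn. These SE values come from the test statistic and are too small where a group holds few counts. The counting intervals above are wider. Among 11574 genes, Col6a1 ranked 6th and 15th from the lowest at days 7 and 14, Col6a2 56th and 47th, and the alpha 3 chain gene 11th and 2nd. All RA cultures were below all cultures without RA of the same day for each chain, beside 12.6% of all genes at day 7 and 13.9% at day 14. The change at day 14 minus that at day 7 was 0.38 for Col6a1 (SE 0.55), -0.29 for Col6a2 (SE 0.37) and -2.58 for the alpha 3 chain gene (SE 1.26). For the alpha 3 chain gene, the level without RA went from 32.9 CPM at day 7 to 129 CPM at day 14, and the level with RA was under the floor at both days. Summed over the 3 chains, the groups T0, T7-RA and T14-RA had 391 ± 33.4, 277 ± 29.2 and 477 ± 5.65 CPM, and T7+RA and T14+RA had 24.8 ± 11.2 and 34.1 ± 9.49 CPM (SD, n = 3).

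The make-up of the collagen VI RNA left with RA was described by its shares. The genes were chosen on their RA response, so these shares are a description with no test. Per length, the alpha 2 share was 69.2% ± 23.3 in T7+RA and 68.2% ± 8.88 in T14+RA, against 45.9% ± 5.98 and 41.8% ± 3.45 without RA (SD, n = 3). In T7+RA it was 87.8%, 76.7% and 43.0% in single cultures, and the lowest of these came from 7 counts over the 3 chains. The T7+RA cultures therefore overlapped T7-RA, which held 40.3% to 52.2%. The T14+RA cultures held 58.1% to 74.9%, from 22 to 25 counts a library over the 3 chains, and T14-RA held 38.3% to 45.2%.

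Other collagens were set beside the chain genes in the RA description, though the latter were chosen for a low level with RA and the former were not. Among 23 other collagen chain genes the median log2 RA change was 0.24 at day 7 and 0.06 at day 14, beside -0.021 and -0.0036 over all genes, and the 3 chain genes had medians of -4.31 and -4.28. At day 7, 5 of the 23 rose and 3 fell (edgeR adjusted p under 0.001, beside 3.17% of all genes, 1.87% higher and 1.3% lower), and at day 14, 2 rose and 4 fell (beside 4.81%, 2.46% higher and 2.35% lower). Col11a1, a fibrillar collagen chain of cartilage, rose by 2.24 at day 7 and 1.99 at day 14 (edgeR adjusted p = 1.82e-23 and 9.36e-20). Col5a3, a minor fibrillar chain, had changes of -1.42 and -1.46 (edgeR adjusted p = 9.03e-08 and 4.1e-08). Col8a2, a short-chain collagen of basement membranes, had -1.23 and -1.21, and Col4a1, the main basement membrane chain, rose by 0.73 at day 7 (edgeR adjusted p = 2.92e-08, 2.92e-06 and 9.29e-09). Col10a1, a network collagen of cartilage, fell by 2.51 at day 14 (edgeR adjusted p = 0.000592), from 23.6 ± 1.44 to 3.58 ± 2.02 CPM (SD, n = 3), beside the -2.97 of Col6a2. That call was lost with DESeq2 (adjusted p = 0.00914), with limma-voom (0.00139) and without any 1 of the 6 cultures compared (up to 0.00601). Col15a1 had 2.97 ± 3.77 CPM in T14-RA (SD, n = 3) and 0 counts in T14+RA, and no fold is given for it at this depth.

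**Figure D3:**
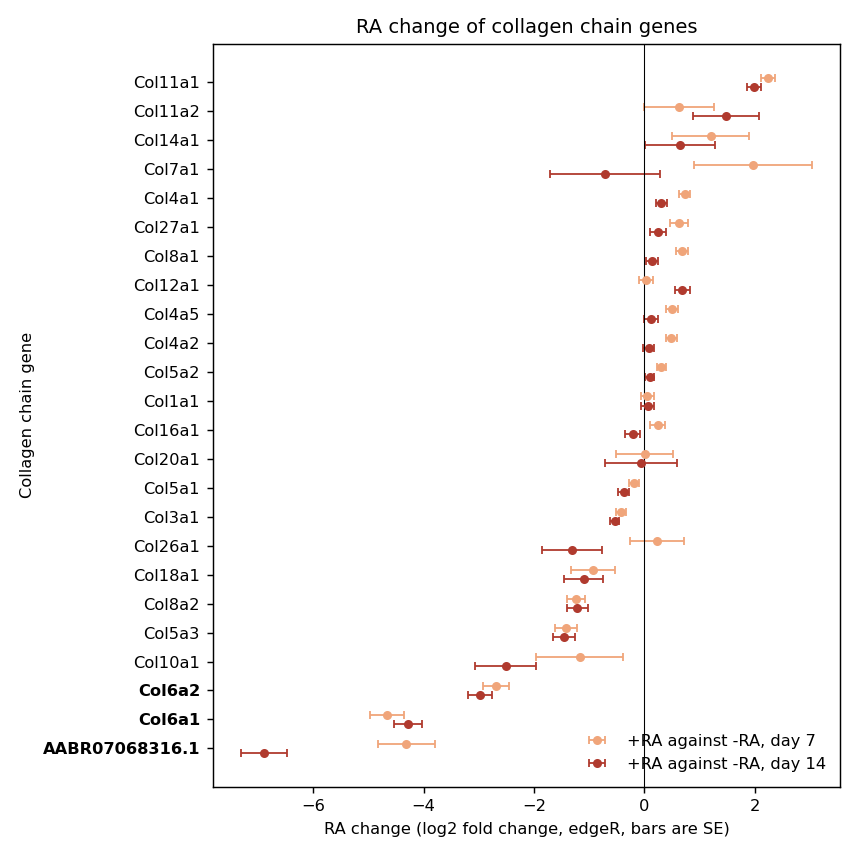
RA change as log2 fold change (x axis, bars are SE) at day 7 and day 14 for the 3 collagen VI chain genes, in bold, and the other collagen chain genes, ordered by their mean change. Col4a4 and Col15a1, with no count in at least 1 group, are not drawn. Bars are too short where a group holds few counts, as for AABR07068316.1. Col6a1, Col6a2 and AABR07068316.1, which were chosen for a low level with RA, lie lowest of those drawn, next to Col10a1.

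Over time without RA, 8 of the 23 other collagens fell and 1 rose at T7-RA, beside 4.54% and 4.23% of all genes (edgeR). At T14-RA against T0, 9 fell and 3 rose, beside 7.84% and 7.83%. In the second week, 3 fell and 2 rose without RA (beside 1.09% and 1.87%), and 6 fell and 1 rose with RA (beside 2.26% and 2.4%). Like the alpha 3 chain gene, Col3a1, a fibrillar chain of soft tissues, was higher in T14-RA than at T0, by 1.41 (SE 0.086, edgeR adjusted p = 4.6e-22), and Col10a1 by 2.98 (SE 0.63, edgeR adjusted p = 0.000114) from 2.3 ± 3.98 CPM, a call lost with DESeq2 (adjusted p = 0.00239) and without the second or the third T0 culture or the first T14-RA culture (up to 0.00107). In the same comparison Col4a1 fell by 1.48 (SE 0.097, edgeR adjusted p = 1.62e-20).

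Of 19 listed receptors and binding partners of collagen VI, 16 were analysed. With RA, 6 rose and 1 fell at day 7 (edgeR), beside 1.87% higher and 1.3% lower among all genes. At day 14, 5 rose and 2 fell, beside 2.46% and 2.35%, and DESeq2 called 3 higher and 2 lower. The median changes of the 16 were 0.55 and 0.37, beside -0.021 and -0.0036 over all genes. Itga3 and Itga11, integrin alpha subunits that pair with beta 1, rose by 2.09 and 1.25 at day 7 and by 0.86 and 1.13 at day 14 (edgeR adjusted p = 2.9e-20, 7.17e-11, 2.5e-06 and 1.47e-08). Biglycan (Bgn), a small proteoglycan that binds collagen VI, fell by 0.74 at day 7 (SE 0.085, edgeR adjusted p = 3.86e-10), from 3120 ± 149 to 1870 ± 57.5 CPM (SD, n = 3). Tgfbi, a secreted adapter protein, rose by 1.31 at day 14 (SE 0.26, edgeR adjusted p = 0.000146), a call lost with DESeq2 (adjusted p = 0.00261) and without the first or second T14+RA culture or the first or the third T14-RA culture (adjusted p up to 0.00594).

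Over time, 1 of the 16 partners rose and 5 fell at T7-RA, and 2 rose and 6 fell at T14-RA against T0 (edgeR, medians -0.14 and -0.26), beside 4.23% higher and 4.54% lower among all genes at T7-RA and 7.83% and 7.84% at T14-RA. DESeq2 and limma-voom each called 1 higher and 6 lower at T14-RA. In the second week 1 rose and 3 fell without RA (beside 1.87% and 1.09%), and 1 rose and 5 fell with RA (beside 2.4% and 2.26%). The gene that rose in both was decorin (Dcn), another small proteoglycan that binds collagen VI. It had 0 counts in all T0 cultures, 3.58, 2.69 and 16 CPM in T7-RA and 56.5, 42.5 and 52.5 CPM in T14-RA, at least 9.43-fold higher than the mean floor of 3 counts per T0 library. With RA it was not lost, at 4.28, 12.1 and 10.3 CPM in T7+RA and 96.5, 154 and 109 CPM in T14+RA, which was 1.21 higher on the log2 scale than T14-RA (SE 0.23, edgeR adjusted p = 8.81e-05). This call was lost with DESeq2 (adjusted p = 0.00189) and without the second T14+RA culture (0.00375) or the second or the third T14-RA culture (0.002 and 0.00114). Decorin and the alpha 3 chain gene both rose from T7-RA to T14-RA, and in T14+RA decorin was at its highest while the alpha 3 chain gene had 2 counts over the 3 cultures. Itga11, Col4a1 and Col4a2 fell from T0 to T14-RA, with changes of -1.56, -1.48 and -1.10 (edgeR adjusted p = 6.96e-14, 1.62e-20 and 4.22e-14).

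Of 20 genes for folding and modifying collagen in the cell, 16 were analysed. With RA, 2 rose and 1 fell at day 7, beside 1.87% and 1.3% of all genes, and 3 rose at day 14, beside 2.46% (edgeR, medians 0.0046 and 0.25). The lysyl hydroxylase Plod2 rose by 0.77 and 1.11 (edgeR adjusted p = 1.02e-06 and 2.97e-09), and the prolyl hydroxylase subunit P4ha1 by 0.72 and 0.82 (edgeR adjusted p = 5.76e-07 and 7.87e-08). Over time, 4 of 16 genes fell at T7-RA and 8 at T14-RA against T0, beside 4.54% and 7.84% of all genes, and 3 fell in the second week without RA and 2 with RA, beside 1.09% and 2.26% (edgeR). The medians for T7-RA and T14-RA against T0 were -0.30 and -0.65, beside 0.02 and 0.04 over all genes. Serpinh1, the collagen chaperone, fell by 1.05 at T14-RA (SE 0.092, edgeR adjusted p = 5.32e-15), and P4ha3 fell by 2.66 (SE 0.16, edgeR adjusted p = 8.06e-22), while the alpha 3 chain gene rose.

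Of 13 genes for processing and crosslinking collagen outside the cell, 10 were analysed. With RA, 2 rose at day 7, beside 1.87% of all genes, and 1 rose and 1 fell at day 14, beside 2.46% and 2.35% (edgeR, medians -0.11 and 0.09). The lysyl oxidase Loxl2 rose by 1.89 and 1.68 (edgeR adjusted p = 5.86e-21 and 4.49e-17). The gelatinase Mmp2 fell by 1.87 at day 14 (edgeR adjusted p = 2.21e-10), from 270.0 ± 2.60 to 76.3 ± 16.9 CPM (SD, n = 3). Against T0, 1 rose and 1 fell at T7-RA, beside 4.23% and 4.54% of all genes, and 1 rose and 6 fell at T14-RA, beside 7.83% and 7.84% (edgeR). DESeq2 called 1 higher and 0 lower at T7-RA. In the second week 1 rose and 1 fell without RA, beside 1.87% and 1.09%, and 1 rose and 2 fell with RA, beside 2.4% and 2.26%. The gene that rose in all 4 was Mmp2, by 4.77 at T14-RA (SE 0.29, edgeR adjusted p = 2.14e-17), from 8.15 ± 11 CPM at T0.

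The genes most like each chain over the 15 libraries were named by Pearson's r of log2 CPM, among 8379 genes with a mean count of at least 10. These r values are descriptions, since the 6 RA libraries lie apart from the 9 others and share that split for all such genes. For Col6a1 they were Rab6b (r = 0.976), a small GTPase, gelsolin (Gsn, 0.963), which severs actin, periostin (Postn, 0.962), biglycan (0.956) and Adamtsl4 (0.953). For Col6a2 they were AABR07021544.1 (0.951), the actin nucleator Cobl (0.945), Rab6b (0.944), Col6a1 (0.944) and periostin (0.938). For the alpha 3 chain gene they were aquaporin 1 (Aqp1, 0.977), Olfml2b (0.974), the protease Adamts1 (0.974), Ppfibp1 (0.954) and Dclk1 (0.953). Among the chain genes, r was 0.944 between Col6a1 and Col6a2, 0.863 between Col6a1 and alpha 3, and 0.850 between Col6a2 and alpha 3.

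A high r did not mean a change of equal size. Rab6b had log2 RA changes of -0.72 at day 7 and -0.87 at day 14, against -4.66 and -4.28 for Col6a1. Periostin, a matricellular protein, had -5.27 and -5.73, the nearest of the 5 genes most like Col6a1. Its level without RA went from a mean of 1400 CPM at T0 to 744 and 563 CPM, lower at T14-RA than at T7-RA, whereas that of Col6a1 was higher at T14-RA. Aquaporin 1, a water channel, had -4.76 and -5.38, and its mean level rose without RA from 51.0 to 193 and 402 CPM, like the alpha 3 chain gene.

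**Figure D4:**
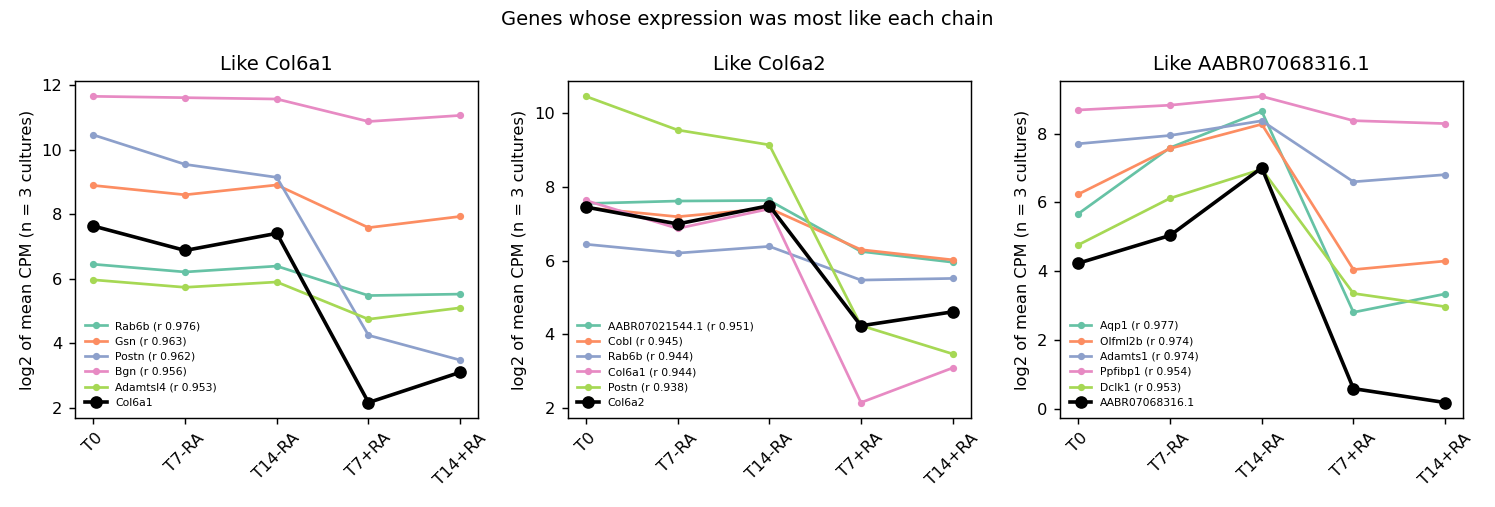
Mean expression as log2 of CPM (y axis, n = 3 cultures per group) of each collagen VI chain gene, in black, and of the 5 genes with the highest r to it over 15 libraries, in 3 panels, by group on the x axis. Each black line is lower at T7+RA than at T7-RA. The log2 RA change at day 7 was -5.27 for Postn beside -4.66 for Col6a1 and -2.69 for Col6a2, and -4.76 for Aqp1 beside -4.31 for AABR07068316.1.

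In bulk RNA, fewer cells of a type and less RNA per cell cannot be told apart. Collagen VI is known mainly from fibroblasts, so fibroblast markers were set beside it. Of 17 markers 10 were analysed, and Pdgfra, Fap, Tcf21, Cd34 and Dpt were not among them. With RA, 1 rose and 4 fell at day 7 (beside 1.87% and 1.3% of all genes) and 1 rose and 6 fell at day 14 (beside 2.46% and 2.35%) by edgeR, with median log2 changes of -0.48 and -0.55. Their summed level, in which Col1a1 weighs most, was 27000 to 30300 CPM in T7+RA against 28500 to 32000 in T7-RA, and 23600 to 29800 in T14+RA against 29800 to 30500 in T14-RA. The list holds periostin, decorin and Col3a1, which are described above. From T0 to T14-RA, 4 of these markers rose and 3 fell (beside 7.83% and 7.84% of all genes), with lumican and decorin at 0 counts in all T0 cultures. Their part in the results on collagen VI was not tested.

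Muscle markers also moved with the groups. The shares of all genes called with RA were 1.87% higher and 1.3% lower at day 7 and 2.46% and 2.35% at day 14, and from T0 to T14-RA they were 7.83% and 7.84% (edgeR). All 12 myotube markers were higher in T14-RA than at T0, and 4 were lower with RA at day 7 and 8 at day 14. Of 6 myoblast markers analysed, 2 rose with RA at each day. Of 5 smooth muscle markers, 4 fell both at T7-RA (beside 4.54% of all genes) and at T14-RA against T0, and their summed level was 15500 to 17000 CPM at T0, 3970 to 5460 in T7-RA and 3470 to 3590 in T14-RA. With RA, 1 of them fell at day 7 with edgeR and 0 with DESeq2 or limma-voom. At day 14, 1 rose and 1 fell with edgeR and with limma-voom, and 0 rose and 1 fell with DESeq2. Of 4 cardiomyocyte markers analysed, 2 rose and 0 fell from T0 to T14-RA, and 1 fell with RA at day 14 (Actn2). Their summed level was 74.5 to 85.9 CPM at T0 and 754 to 871 CPM in T14-RA. Of 5 proliferation markers, 4 fell from T0 to T14-RA, and with RA 0 were called at either day by edgeR, DESeq2 or limma-voom, with 3 at day 7 and 4 at day 14 lower at an unadjusted edgeR p under 0.05. The part of these markers in the results was not tested.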

How the data were processed

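RNA-Seq counts of 15 H9c2 cultures were analysed, 3 in each of 5 groups taken from the labels. The authors cleaned and trimmed the reads on the Galaxy platform, mapped them with HISAT2 and made gene counts with featureCounts (build Rnor_6.0 per the submitters' processing notes), and deposited raw counts per gene for genes whose counts over the 15 libraries exceeded 20. The smallest sum was 21. Libraries were made with a stranded kit, but the strand setting of the counting is not given in the sources used here, so reads of an overlapping gene on the other strand cannot be told apart. The annotation deposited with the counts gave symbols, bands, types and lengths. Promoters came from RefSeq (GRCr8), whose coordinates were not mixed with Rnor_6.0. The alpha 2 chain promoter was not used here.

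Counts were scaled by TMM and fitted with the robust quasi-likelihood F test of edgeR 4.0.16 (R 4.3.3) to 5 group means over all libraries. P-values were adjusted over 11574 genes by the Benjamini-Hochberg method, and genes under 0.001, the study's threshold, were called. The additive model of the study (T7, T14 and RA terms) was an alternative, because its time terms contain the RA contrast on which the chain genes had been chosen. SE is the absolute log2 change over the square root of F, which can be too small where a group holds few counts. CPM used TMM-scaled library sizes, and a prior count of 2 for likeness only. The floor was 3 counts per library, and a fold against a group at 0 was computed from it. Count ratios of pooled groups have exact 95% binomial intervals, and intervals and floors cover only counting error, as reads carry no molecular identifiers. Of the scripts, only the edgeR fit was tested on simulated data, for T14-RA against T0.

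The genes, the lists and the tests were chosen with earlier results of these data known. The lists were partners, folding, processing, other collagens and markers of fibroblasts, myoblasts, myotubes, cardiomyocytes, smooth muscle, proliferation and RA response. Dcn, Col3a1 and other genes stand in more than 1 list. Of each list at most 4 called genes with the largest change per comparison were named, as were the 5 genes most like each chain. Actn2, lumican, Myod1, Col1a1, Col4a4, Col15a1 and the markers given as not analysed were named outside this rule. No pair of replicates was as close as sampling noise allows (chi-square per gene at least 1.07), so each library was kept. The study calls them biological replicates. Alternatives were limma-voom (limma 3.58.1), DESeq2 1.42.0, other size factors, other filters, an adjusted p of 0.05, a replicate block and each library left out. The replicate numbers did not pair the cultures.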

Additional observations from a re-analysis of the deposited data

Results flagged for a closer look

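The difference in RA change between the days was tested for at most 4 called genes per list and day. They had the largest RA changes among the partner, folding, processing and other collagen lists. Of these genes, 1 differed between the days at an edgeR adjusted p under 0.05. The collagen VI chains and all other list genes were not screened in this way. The RA change of Itga3, an integrin alpha subunit among the collagen VI receptors, was smaller at day 14 than at day 7, with a difference of -1.23 on the log2 scale (SE 0.198, edgeR adjusted p = 3.73e-05). Its mean level was 96.3 ± 13.6 CPM in T7-RA, 411 ± 9.37 in T7+RA, 127 ± 14.5 in T14-RA and 227 ± 43.0 in T14+RA (SD, n = 3), so that it was higher with RA at both days.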

How the results depend on the processing

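The rise of the alpha 3 chain gene at T14-RA was called against T0 and against T7-RA under every alternative that gave a value, with log2 changes of 2.47 to 3.11 and 1.89 to 2.10. The call of Col6a1 at T7-RA depended on the setting. At an adjusted p under 0.05, 2 chain genes were called there and 3 from T7-RA to T14-RA, DESeq2 called 0 at T7-RA, and leaving out 1 library gave 0 to 1. The share of all genes under 0.05 was not counted, so the calls at that threshold have no background beside them. The median RA change of the chains was -4.31 at day 7 (-4.39 to -4.16 without 1 library) and -4.28 at day 14 (-4.35 to -4.21), and the other alternatives gave -4.46 (DESeq2) to -3.90 (limma-voom) at day 7 and -4.31 to -4.20 (limma-voom) at day 14. Leaving out 1 library turned the sign of differences that were not called, for Col6a2 from T0 to T14-RA (-0.0215 to 0.125, the lowest without the first T0 culture), for Col6a2 from T7+RA to T14+RA (-0.171 to 0.594, the lowest without the third T7+RA culture) and for the alpha 3 chain gene there, under the floor in both groups (-1.10 to 0.168, the highest without the first T14+RA culture). The cause was not tested. The filter of at least 10 counts in every library removed all 3 chain genes and gave no value. With DESeq2, 3 in place of 5 receptors and partners rose with RA at day 14, and 4 in place of 6 fibroblast markers fell with DESeq2 or limma-voom. Both tools called 1 other collagen higher and 1 lower in the second week without RA, in place of 2 and 3.

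With the replicate number as a block, 1 chain gene was called in each comparison without RA and 0 from T7+RA to T14+RA, as without it, and the block gave median RA changes of -4.30 and -4.27. Deviations of cultures with the same number had a mean correlation of 0.018 (-0.0352 to 0.0991 over 30 pairs), against -0.009 for different numbers, so the numbers were not read as pairs. An added count of 0.5, chosen after the data were seen, gave alpha 3 ratio changes of 3.02 and 2.75. Values in RA cultures were limited by few counts, as the chain genes had 0 to 20 counts a library there.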
